A study of Mus musculus with 3 samples.

Results

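The genes of oxidative phosphorylation were read from arrays of the mouse posterior frontal suture, the fibrous joint between the frontal bones. Members were chosen by gene name alone: subunits of complex I (Nduf names), complex II (Sdha to Sdhd), complex III (Uqcr names and Cyc1), complex IV (Cox4 to Cox8 names) and complex V (Atp5 names). The choice gave 86 genes on 129 probes, out of 32053 named genes on 52936 probes. Of the 86 genes, 37 belong to complex I by name, 4 to complex II, 9 to complex III, 19 to complex IV and 17 to complex V. All 86 matched a RefSeq entry, and 4 carry a newer symbol there: Atp5f1 is Atp5pb, Cox4nb is Emc8, Atp5s is Dmac2l and Atp5sl is Dmac2. Cox4nb, a subunit of a protein insertion complex of the endoplasmic reticulum, and Atp5s and Atp5sl, factors named after ATP synthase, are members by name and are not subunits. Ndufa4 is counted with complex I by its name, although it is now regarded as a complex IV subunit.

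RNA came from C57BL/6 mice in 3 groups: Runx2+/+ (wild type) at postnatal day 5, wild type at postnatal day 7, and Runx2+/- at postnatal day 7. Runx2 is the transcription factor that osteoblasts need to form, and Runx2+/- mice carry a disrupted allele beside a normal one. Neither the altered part of the gene nor the number of mice pooled on an array is stated in the labels. Each group was measured on 1 one-colour Agilent array, so each difference compares a pair of single hybridisations, without a replicate and without a p-value.

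Oxidative phosphorylation makes most of the ATP of a resting cell. Complexes I and II pass electrons from NADH and succinate to ubiquinone, complex III passes them to cytochrome c, complex IV passes them to oxygen, and the proton gradient that complexes I, III and IV build up drives ATP synthesis by complex V. Most subunits are encoded in the nucleus, while the mitochondrial genome encodes a small catalytic set in every complex but complex II. Osteoblasts, chondrocytes and marrow cells use glycolysis and oxidative phosphorylation in different proportions as they mature.

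Levels are given as log2 signal above the array's 75th percentile, the scaling used throughout unless another is named. The P7 wild-type array was the dimmest, with 29.2% of 55680 probes well above background, against 40.08% on the P5 and 47.33% on the Runx2+/- array. Its 75th percentile lay at 22.8 intensity units, against 52.1 and 124.3, and the scanner software had marked that array for evaluation. No spot was saturated on any array. Spots of repeatedly printed probes within each array gave a technical SD of 0.25 for a log2 difference between the wild-type arrays and 0.22 for one between the P7 arrays. It covers variation between spots and holds no variation between labellings, hybridisations or mice, so a difference beyond it can still be of those kinds. Runx2 itself was at 2.38 at P5, 1.46 at P7 and 1.08 in Runx2+/-, a difference of -0.38 between the P7 arrays. Markers of some other cells differed more than the members did. The 8 osteoblast markers had a median difference of -2.24 between Runx2+/- and P7 wild type, and 9 neutrophil markers had medians of -3.57 for age and 2.19 for genotype. The part of cell makeup in the results below was not tested, and in tissue RNA fewer cells of a type and less RNA per cell cannot be told apart.

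Nearly all members were well detected. On all 3 arrays 80 of the 86 were well above background, comprising 36 in complex I, all in complexes II and III, 15 in complex IV and 16 in complex V. Their median levels were 5.01 at P5, 4.83 at P7 and 5.02 in Runx2+/-, and 48 of the 80 fell in the brightest of 8 equal bands of all genes detected on the 3 arrays. The 6 others were Ndufab1, Cox6a2, Cox7b2, Cox8b, Cox8c and Atp5s, which are described with their complexes. The lowest detected signal was -0.78 on the P7 wild-type array, against -2.12 on the P5 and -3.25 on the Runx2+/- array, so dim members could be called detected least readily there.

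**Figure D1:**
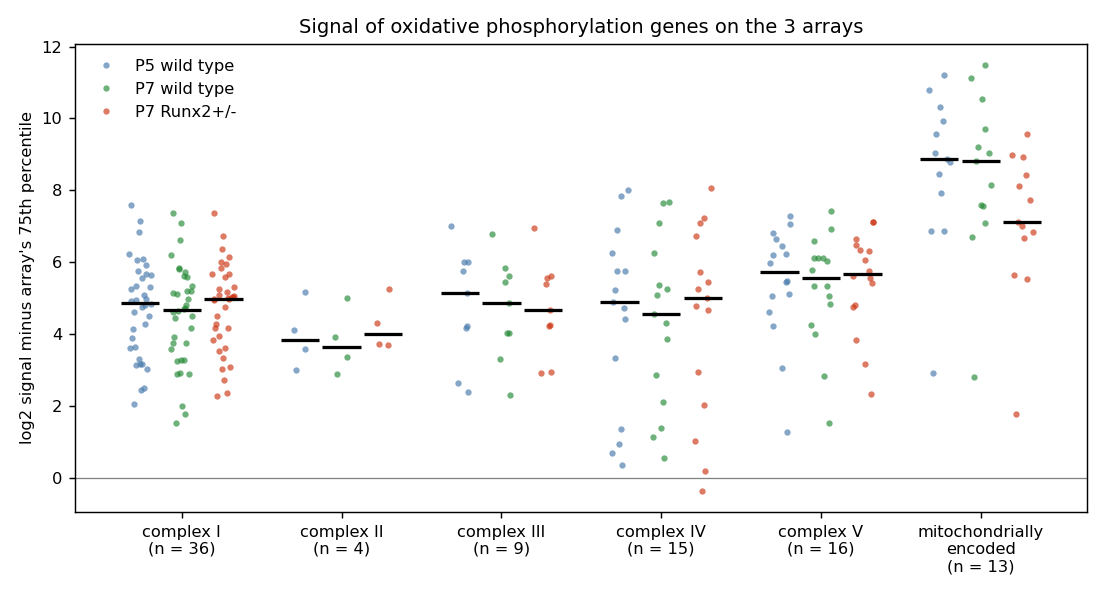
Level of each gene that was well above background on all 3 arrays (points, log2 signal minus the array's 75th percentile), by complex and for the mitochondrially encoded subunits, with the median as a bar. The nuclear medians of each complex lie close together on the 3 arrays, while the mitochondrially encoded subunits are lower on the P7 Runx2+/- array.

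The age comparison asked how the suture differs between day 5 and day 7 in wild-type mice. Members were slightly lower at P7 in every complex. Among 80 members measured on both arrays, 66 were lower and 14 higher, with a median difference of -0.21 (SD over members 0.26, range -0.72 to 0.75). Over all 12069 named genes measured on both arrays, 42.8% were lower and 57.2% higher. None of the 80 was at least 2-fold apart, where 6.32% of all named genes were at least 2-fold higher and 3.29% at least 2-fold lower. At 1.5-fold, 2 members were higher (Cox6b2 and Uqcrc1) and 1 was lower (Ndufs8), against 16.4% and 11.1% of all named genes. Medians were -0.23 in complex I, -0.18 in complex II, and -0.20 in each of complexes III, IV and V, each smaller in size than the technical SD of a single gene's difference. Without Cox4nb, which is no subunit, the 14 measured genes of complex IV had -0.26, slightly larger in size than that SD. Under a second scaling, to the median probe among those detected on every array, the medians of complexes I to V by name were -0.26, -0.22, -0.24, -0.24 and -0.24. In the brightest band of genes the median of all genes was -0.10, against -0.21 for the 48 members there.

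The genotype comparison asked what differs in the P7 suture with a single intact Runx2 allele. Nuclear members were slightly higher on the Runx2+/- array: 58 of 80 were higher and 22 lower, with a median of 0.20 (SD 0.40, range -1.74 to 0.86), or 0.21 with Ndufab1 at its lower bound. Over 12112 named genes measured on both arrays, 56.8% were higher and 43.2% lower, with a median of 0.11. A single member, Cox4i2, was at least 2-fold lower and none at least 2-fold higher, where 13.2% and 5.38% of all named genes were. At 1.5-fold, 10 members were higher and Cox4i2 was lower, against 20.3% of all named genes in each direction. Over measured genes, medians were 0.38 in complex II, 0.25 in complex V, 0.21 in complex I, 0.15 in complex IV and -0.01 in complex III (complex I was at 0.23 with Ndufab1 at its bound). In complex I 29 of 36 measured genes were higher, in complex II 4 of 4, in complex III 4 of 9, in complex IV 10 of 15 and in complex V 11 of 16. In the brightest band of genes the median was -0.09 over all genes and 0.16 over the 48 members. Under the second scaling, which lowers every genotype difference by 0.10, the medians of complexes II, V, I, IV and III were 0.28, 0.14, 0.11, 0.05 and -0.11. By that scaling 49 of the 80 measured members were higher, beside 6157 of 12112 named genes. The P7 wild-type array serves as reference in one comparison and as the test array in the other, so a member that reads low there is lower with age and higher with genotype.

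That shared array can be set aside by comparing Runx2+/- at P7 with wild type at P5, groups that differ in both age and genotype. The median over the 80 members was then 0.05, with 47 higher and 33 lower, beside 0.17 over all named genes. On the P7 wild-type array 52 of the 80 members had their lowest value, beside 27.5% of 12038 named genes. Under the second scaling 47 members did, beside 3230 of the 12038 genes. This array was also the dimmest, and the part of its brightness in these values was not tested.

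**Figure D2:**
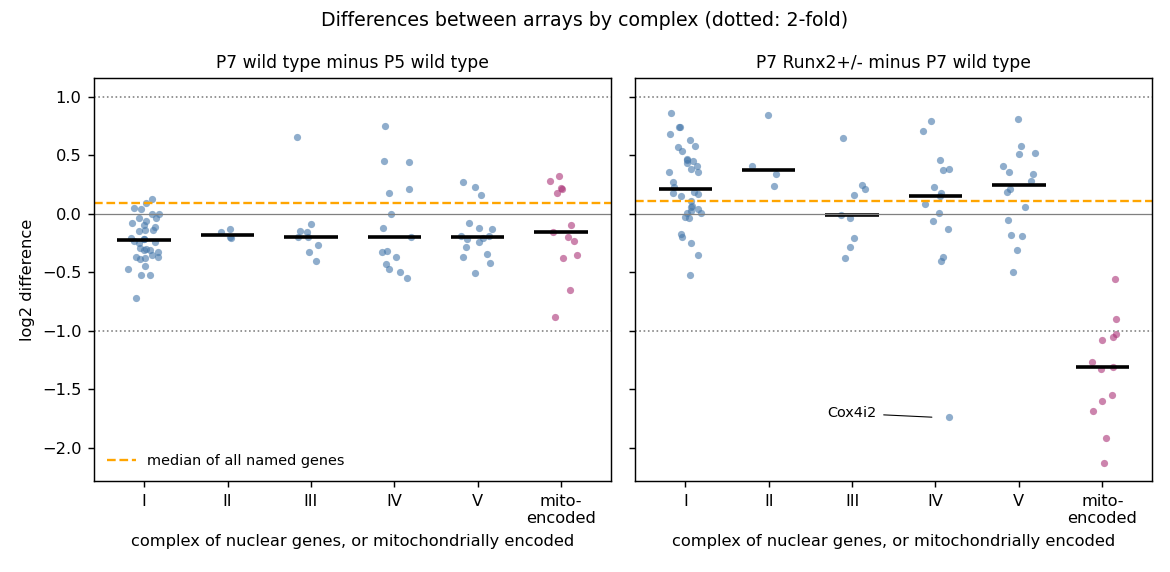
Log2 difference of each gene between the arrays for age (left) and genotype (right), by complex, with the median as a black bar, the median of all named genes as a dashed line and 2-fold as dotted lines. Nuclear members cluster within 1 log2 unit of 0 except Cox4i2 at -1.74, and the 13 mitochondrially encoded subunits have a genotype median of -1.31.

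Complex I, the largest of the chain, oxidises NADH. Its 7 nuclear core subunits, which carry the flavin and the iron-sulfur clusters, had medians of -0.10 for age and 0.04 for genotype, and its 29 measured accessory subunits, which surround the core and assist assembly, had -0.25 and 0.27. Under the second scaling the core median for genotype was -0.06, so its sign depended on the scaling. Ndufs8, an iron-sulfur subunit of the core, was at 2.50 at P5, 1.79 at P7 and 2.36 in Runx2+/- (values are given in this order from here on). It was low on the P7 wild-type array alone, with an age difference of -0.72 and a genotype difference of 0.57. Ndufs1, the largest iron-sulfur subunit, was at 3.17, 3.27 and 3.62, with an age difference of 0.09 that lay within the technical SD and a genotype difference of 0.36 that lay beyond it.

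Among the accessory subunits, Ndufc2, a membrane-arm protein, was at 4.52, 4.18 and 5.04, a genotype difference of 0.86 (1.81-fold) and the largest positive one of any member. Ndufa10 was at 2.06, 1.54 and 2.28 and Ndufa8 at 2.46, 1.99 and 2.73, both 0.74 higher on the Runx2+/- array than in P7 wild type. Both were lowest on the P7 wild-type array, with age differences of -0.52 and -0.47. Ndufb5 was at 4.28, 3.75 and 4.17, likewise low on that array, but its dimmer detected probe, at 1.72, 1.57 and 1.59, gave a genotype difference of 0.02. Ndufb7 ran the other way, at 6.24, 6.20 and 5.68: the wild-type arrays were alike and the Runx2+/- array was lower, with a difference of -0.52. Ndufa3, at 7.16, 7.08 and 6.73, showed the same order with a difference of -0.35. The most strongly hybridising probe of the complex was that of Ndufa13, at 7.59, 7.37 and 7.38. Ndufab1, the mitochondrial acyl carrier protein, was well above background at P5 (-0.83) and on the Runx2+/- array (-0.51) but not on the P7 wild-type array, so its Runx2+/- signal exceeded P7 wild type by at least 1.20-fold and it has no order for age. Ndufv3, a small subunit of the NADH-binding arm, has probes that disagreed for genotype, 0.23 for the brighter and -0.095 for the dimmer.

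Complex II, succinate dehydrogenase, is shared with the tricarboxylic acid cycle and is the sole complex without a mitochondrially encoded subunit. Its 4 genes were each lowest on the P7 wild-type and highest on the Runx2+/- array. Sdha, the flavoprotein that oxidises succinate, was at 3.01, 2.88 and 3.72. Its genotype difference of 0.84 (1.79-fold) lay well beyond the technical SD, while its age difference of -0.13 did not. Sdhb, the iron-sulfur subunit, was at 5.17, 5.02 and 5.25. The membrane anchors Sdhc and Sdhd were at 3.58, 3.36 and 3.71 and at 4.12, 3.91 and 4.32. The genotype differences of these 3 were 0.24, 0.34 and 0.41, and against P5 wild type all 4 were higher too, with a median of 0.17, the same as for all named genes. The 4 kept a positive genotype difference under each of the 9 processings. All were detected on every array, so settings that change only the filter leave their values unchanged. For Sdha and Sdhd, each read by a single probe, so do settings that change the probe. For age, the second probe of Sdhc was at 0.37 where the brighter gave -0.21, and the probes of Sdhb gave 0.019 and -0.16, so the age direction of both rests on the choice of probe.

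Complex III passes electrons from ubiquinol to cytochrome c, and the values of its nuclear subunits differed by role. The nuclear catalytic subunits were higher on the Runx2+/- array than in P7 wild type. The Rieske iron-sulfur protein Uqcrfs1 was at 2.40, 2.31 and 2.96 (difference 0.65), and cytochrome c1, Cyc1, at 4.23, 4.03 and 4.27 (0.25). The mitochondrially encoded catalytic subunit CYTB was instead lower, with a difference of -1.6. The 5 accessory subunits were all lower on the Runx2+/- array than at P5, with a median of -0.41, and 4 of the 5 were lower than on the P7 wild-type array, with a median of -0.04 over the 5. Uqcr11 was at 6.02, 5.85 and 5.57, with a genotype difference of -0.28, beyond the technical SD, and an age difference of -0.16, within it. Uqcrq was at 6.02, 5.62 and 5.61 and Uqcr10 at 5.77, 5.44 and 5.40, lower on both P7 arrays than at P5. Uqcrh, the hinge protein that helps dock cytochrome c, was at 7.0, 6.80 and 6.96.

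The core proteins Uqcrc1 and Uqcrc2, which face the matrix and hold the dimer together, gave different readings. Uqcrc1 was at 2.65, 3.31 and 2.93, highest on the P7 wild-type array, with an age difference of 0.66 (1.58-fold) against the direction of 8 other genes in the complex. Uqcrc2 was printed in many copies on the array, at 4.17, 4.03 and 4.23 with spot SDs of 0.046 (10 spots), 0.039 (9 spots) and 0.028 (10 spots). Its differences of -0.15 and 0.21 were larger than those spot SDs, which cover variation between spots of a single array and none between labellings, hybridisations or mice. For genotype, probes of Uqcr10 (-0.055 to 0.12) and Uqcrb (-0.36 to 0.0016) lay on both sides of 0, and the complex's median of -0.01 changed sign under several processings.

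Complex IV, cytochrome c oxidase, contains nuclear subunits that exist as tissue-specific forms. Cox6a1, the widespread form of subunit 6a, had the strongest signal of any member at 8.01, 7.69 and 8.08. Cox7c was at 4.42, 3.87 and 4.66 and Cox5a, which binds a thyroid hormone metabolite, at 4.73, 4.30 and 5.01. Both were lower on the P7 wild-type array than on either other array, with genotype differences of 0.79 and 0.71. A second Cox7c probe of similar brightness, at 4.46, 3.79 and 4.10, gave a genotype difference of 0.32. Cox5b was represented by a probe that the files place on chromosome 15, with a genotype difference of 0.15, and its other probe, on chromosome 1, gave 0.50. Cox8a, the widespread form of subunit 8, was at 7.84, 7.64 and 7.23, a genotype difference of -0.40, and its second probe gave -0.30. For age the probes of Cox8a disagreed, at -0.20 and 0.32. Cox4nb, which is no subunit, was at 0.70, 1.14 and 1.02.

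The clearest single difference among nuclear members was that of Cox4i2, the form of subunit 4 known from lung and induced by low oxygen. It was at 0.94, 1.39 and -0.35, well above background on all 3 arrays. The wild-type arrays were within 0.45 of each other, while the Runx2+/- array differed by -1.74 from P7 wild type (3.34-fold lower) and by -1.29 from P5 wild type. Its widespread counterpart Cox4i1 was at 6.90, 7.09 and 7.10, with a genotype difference of 0.01. The difference of Cox4i2 was negative under all 9 processings, from -1.88 with the authors' values to -0.76 after normexp background correction, the only one in which it was under 2-fold. Settings of filter or probe choice cannot change a single probe detected on every array, and left it at -1.74. The second scaling shifts all genes alike and gave -1.84. A single probe reads Cox4i2, at chr2:152590711-152590770 on the plus strand of mm9 by the files' annotation, so no second probe checks it. The first 30 of its 60 bases are shown because the largest nuclear difference rests on them.
Cox4i2 probe: ctgagtcctgtctccactcccttctccaat

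Other tissue-specific forms were dim or undetected. Cox6b2, the testis form of subunit 6b, was at 1.36, 2.11 and 2.04, higher on both P7 arrays, with an age difference of 0.75 (1.68-fold) that was the largest positive one of any member. Its counterpart Cox6b1 was at 3.34, 2.87 and 2.95, lower on both P7 arrays. The muscle form Cox7a1 was at 0.36, 0.57 and 0.20, beside Cox7a2 at 4.90, 4.56 and 4.79 and Cox7a2l, a supercomplex assembly factor, at 6.26, 6.26 and 6.72. The muscle form Cox6a2 was well above background at P5 (-1.28) and on the Runx2+/- array (-1.92), and the muscle form Cox8b at P5 alone (-1.92). None of these has an order for either comparison. Cox7b was at 5.76, 5.26 and 5.44, while its testis form Cox7b2 and the testis form Cox8c were at background on all 3 arrays. The 20 skeletal muscle markers had summed linear levels of 18.3, 13.8 and 14.5 on the 3 arrays. Of the 20, 6 were well above background on every array, Acta1 and Myh8 among them, and 6 on 1 or 2 arrays. The other 8, with the muscle creatine kinase Ckm and myoglobin Mb among them, were at background on all. Of 6 brown fat markers, 2 were well above background on every array and 2 on 1 or 2 arrays. The other 2, with the uncoupling protein Ucp1 among them, were at background on all.

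**Figure D3:**
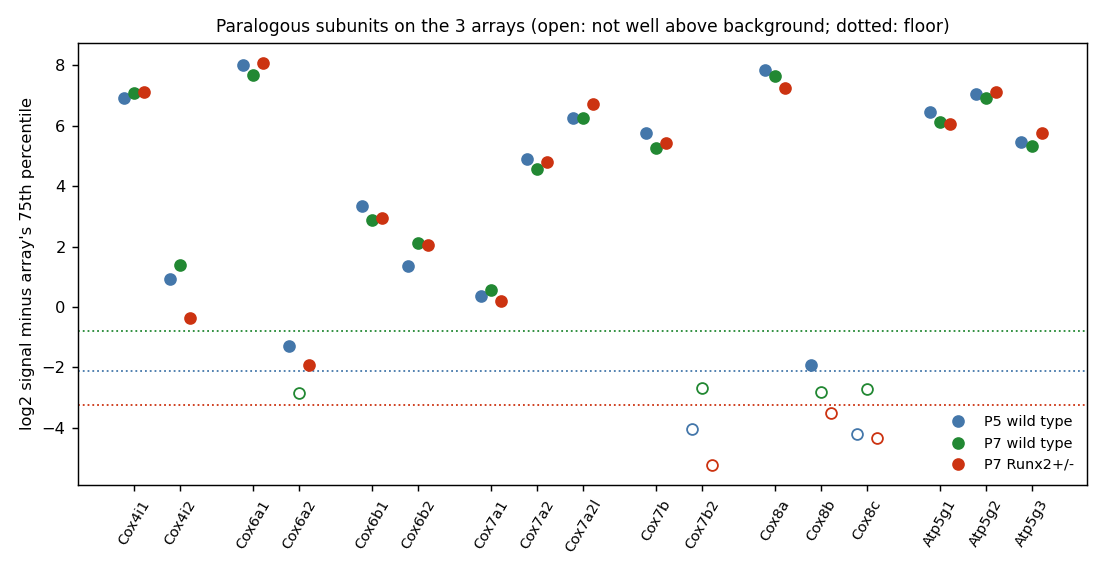
Level of paralogous subunits on the 3 arrays (log2 signal minus the array's 75th percentile), with open points where the probe was not well above background and dotted lines at the lowest detected signal of each array. Cox4i2 separates the Runx2+/- array, at -0.35, from the wild-type arrays at 0.94 and 1.39, whereas Cox4i1 lies between 6.90 and 7.10 on all 3.

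Complex V, ATP synthase, has a catalytic F1 head and a membrane Fo part with a rotating ring. The 5 F1 genes had medians of -0.24 for age and 0.06 for genotype (-0.04 under the second scaling, so its sign depended on the scaling), and the 7 Fo and stalk genes -0.21 and 0.28. The F1 genes differed among themselves. Atp5a1, the alpha subunit, was at 5.12, 4.84 and 5.42, and Atp5c1, the rotor's gamma subunit, at 5.47, 5.05 and 5.55, both lowest on the P7 wild-type array. Atp5d and Atp5e, the delta and epsilon subunits at the foot of the rotor, were instead highest there, at 5.06, 5.33 and 4.82 and at 7.28, 7.43 and 7.12. Genotype differences were 0.58 and 0.51 for the first pair and -0.50 and -0.31 for the second. Atp5j2, the f subunit of Fo, was at 6.64, 6.12 and 6.34, with an age difference of -0.51.

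The c subunit that forms the rotor ring is encoded by 3 genes with the same mature protein. Atp5g1 was at 6.45, 6.12 and 6.06, Atp5g2 at 7.06, 6.92 and 7.12, and Atp5g3 at 5.46, 5.34 and 5.75. Genotype differences were -0.05, 0.19 and 0.41, of which the first 2 lay within the technical SD. A second Atp5g1 probe, which lies far along a longer transcript, gave -0.97 for genotype and 0.061 for age, against -0.05 and -0.34 for the brighter one. Atp5sl, an assembly factor of the complex I membrane arm under an older name, was at 1.29, 1.52 and 2.33, higher on the Runx2+/- array than on either wild-type array by 0.81 and 1.03. Atp5s was well above background on the Runx2+/- array alone, at -1.74. Of the 3 Atp5k probes, 2 are placed on chromosome Y by the files, and all 3 gave genotype differences between -0.36 and -0.18.

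Agreement between probes was closer for members than for genes in general. For 28 members with several detected probes, the root-mean-square SD between probes of a gene was 0.17 for age and 0.21 for genotype, against 0.46 and 0.56 over 2383 genes. In 5 of the 28 members the probes lay on both sides of 0 for age (Atp5g1, Cox7a2l, Cox8a, Sdhb and Sdhc) and in 3 for genotype (Ndufv3, Uqcr10 and Uqcrb). Over the 2383 genes, 981 and 837 did. Many members are bright, with 48 in the brightest band, and the part of brightness in this agreement was not tested. A probe of Cox7c was nearly dark although it overlaps a bright one. The bright probe gave 1149.5, 313.9 and 2133.2 intensity units and the dark one 6.6, 7.3 and 9.5, and the shared 16 bases are in capitals in the end of the first and the start of the second.
Cox7c bright probe, last 30 bases: taaactcttgaactCTTATACTAGAAAAAA
Cox7c dark probe, first 30 bases: CTTATACTAGAAAAAAttgtaaataaacta

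The mitochondrially encoded subunits, which work in the same complexes but fall outside the naming rule, went the other way from the nuclear members. All 13 had a probe well above background on every array, and all 13 were lower on the Runx2+/- array than in P7 wild type, with a median of -1.31 and a range from -2.13 for COX2 to -0.56 for ND3. Of the 13, 11 were at least 2-fold lower. All 13 were also lower than at P5, with a median of -1.44, a comparison that shares the Runx2+/- array, the brightest of the 3. For age the median was -0.16, with 5 higher and 8 lower. Over complexes, the values covered subunits of complex I (ND1 to ND6 and ND4L), III (CYTB), IV (COX1 to COX3) and V (ATP6 and ATP8).

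COX1, the catalytic core of cytochrome c oxidase, was at 11.20, 11.48 and 9.56, a genotype difference of -1.92 (3.79-fold lower). COX2, which receives electrons from cytochrome c, was at 10.80, 11.12 and 8.99, 4.38-fold lower on the Runx2+/- array than in P7 wild type. CYTB, the haem protein of complex III, was at 10.32, 10.53 and 8.93. In each the wild-type arrays were within 0.32 of each other and the Runx2+/- array was lower than both. These probes lie near the top of the signal range, at 122667.3, 64974.3 and 93699.0 intensity units for COX1, and no spot was saturated. The part of array brightness in the difference was not tested. Among dimmer subunits, ND1 was at 6.87, 6.70 and 5.66 (-1.05), ND5 at 6.87, 7.09 and 5.54 (-1.55), and ND6, the subunit encoded on the opposite strand, at 2.91, 2.80 and 1.77 (-1.03). ND3, at 8.46, 7.59 and 7.02, had the smallest genotype difference, and the files place its probe on chromosome 1, at positions 24619613 to 24619672 of mm9, not on the mitochondrial genome.

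**Figure D4:**
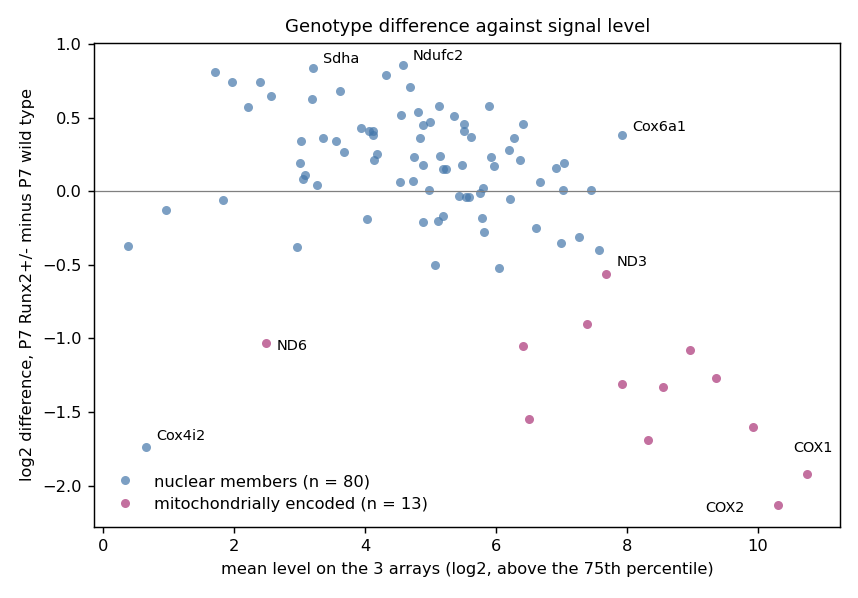
Log2 difference between P7 Runx2+/- and P7 wild type against the mean level on the 3 arrays, for nuclear members (blue, 80 genes) and mitochondrially encoded subunits (purple, 13 genes). All purple points lie at or below -0.56, with ND6, the dimmest of them, at -1.03, or -0.02 after normexp background correction. The part of signal level in these differences was not tested.

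Bright genes in general leaned the same way as these subunits, with a smaller median in a set not matched to their level. That set starts at ND1, at a mean level of 6.41, the dimmest of the 13 after ND6. How far genes as bright as the other subunits differ was not tested. Of 617 other named genes at least as bright as ND1, the genotype median was -0.27 and 21.2% were at least 2-fold lower, and the 11 members among them had a median of 0.01. The 13 probes held 35.0 to 38.3% GC, and 3993 other genes with probes in that range had a genotype median of 0.36, with 5.38% at least 2-fold lower. Of the 13 probes, 4 are shown, for the 3 brightest subunits and for ND6, because the contrast with the nuclear members rests on single probes. They lie on the mitochondrial genome of mm9 at chrM:6650-6709, chrM:7619-7678, chrM:15099-15158 and, on the minus strand, chrM:13552-13611.
COX1 probe: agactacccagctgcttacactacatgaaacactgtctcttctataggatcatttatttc
COX2 probe: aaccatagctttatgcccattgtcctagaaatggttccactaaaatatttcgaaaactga
CYTB probe: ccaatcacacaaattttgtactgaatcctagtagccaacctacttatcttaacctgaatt
ND6 probe: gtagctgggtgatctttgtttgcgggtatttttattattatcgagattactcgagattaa

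The size of the mitochondrial difference depended on the normalization. The median was -1.31 with the 75th percentile and -1.41 with the second scaling, but -0.85 with quantile normalization and -0.56 with the authors' values, and 3 of the 13 were then at least 2-fold lower in each case. After normexp background correction it was -0.02, with 7 of 13 lower, where the median of all probes was 0.63 and that of the members 1.32. Under each of the 9 processings all 13 subunits lay below the median of the nuclear members, by -1.52 to -0.85 between the medians. Those processings are not separate checks. Each subunit has a single probe detected on every array, so settings of filter or probe choice leave its value unchanged. The second scaling shifts all genes alike. The processings that could change the contrast gave -1.15 (quantile), -1.34 (normexp) and -0.85 (authors' values). With 1 array per genotype, a difference between mice or RNA preparations cannot be told apart from one between genotypes.

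**Figure D5:**
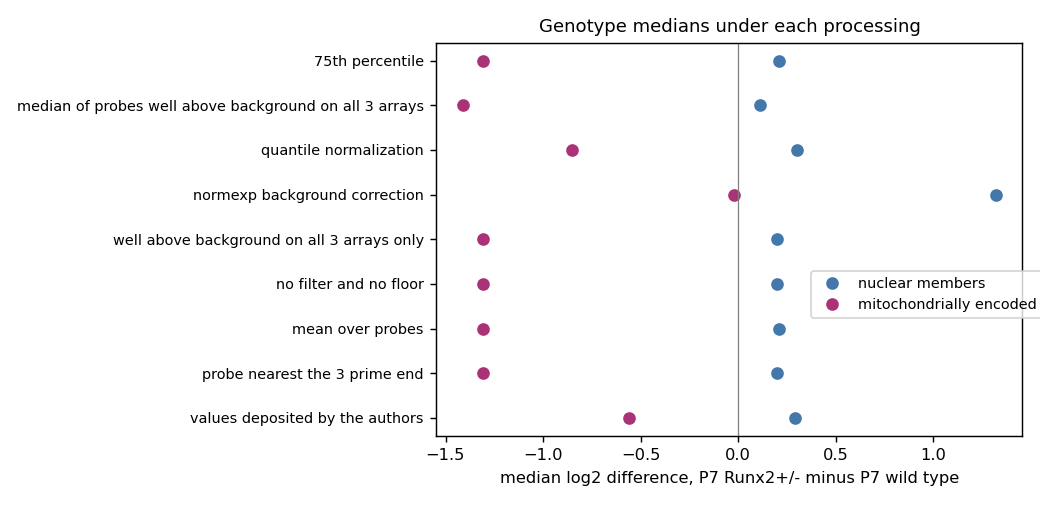
Median log2 difference between P7 Runx2+/- and P7 wild type under each of 9 processings, for the nuclear members (blue) and the 13 mitochondrially encoded subunits (purple). The purple median lies left of the blue one in every row, from -1.31 against 0.21 with the 75th percentile to -0.02 against 1.32 after normexp background correction. Rows that change only the filter or the choice of probe cannot move the purple median.

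Genes that build, feed or regulate the complexes are given beside the shares over all named genes, of which 56.8% were higher on the Runx2+/- array than in P7 wild type and 5.38% at least 2-fold higher. Under the second scaling 6157 of 12112 named genes were higher. Of 20 measured assembly factors 17 were higher (13 under the second scaling), with a median of 0.42. Sdhaf2, which flavinates Sdha, Acad9 and Foxred1, both complex I assembly factors, were at least 2-fold higher, by 1.18, 1.16 and 1.09. Electron carriers and ubiquinone synthesis genes had a median of 0.49, with 7 of 10 higher under either scaling, with Cycs, cytochrome c, at 4.16, 3.53 and 4.01. Enzymes of the tricarboxylic acid cycle had 0.35, with 11 of 14 higher under either scaling, pyruvate dehydrogenase genes 0.22 and carriers 0.29. Their age medians lay between -0.01 and 0.05 except for pyruvate dehydrogenase, at 0.31 with Dlat, the complex's acetyltransferase, at its bound. The 6 measured genes of that list, among them the kinases Pdk1, Pdk2 and Pdk3, were all higher at P7, beside 57.2% of all named genes. Dlat was detected at P5 and on the Runx2+/- array but not on the P7 wild-type array. Ucp2, an uncoupling protein homologue of blood and immune cells, was at 1.11, 1.60 and 0.58, a genotype difference of -1.03.

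Regulators of mitochondrial gene expression included the largest differences of these lists. Tfam, which packages and transcribes mitochondrial DNA, was at 0.29, -0.14 and 1.01, higher by 1.15 on the Runx2+/- array, the array on which the mitochondrially encoded subunits were lowest. The mitochondrial RNA polymerase Polrmt was at 0.38, 0.32 and 0.91 and its partner Tfb2m at 0.01, -0.30 and 0.46. Pprc1, a coactivator of the PGC-1 family, was at -0.31, 0.41 and -1.47, a genotype difference of -1.88. Gabpa, an ETS factor of nuclear mitochondrial genes, was at -0.82, 0.18 and 0.31, higher at P7 by 1.0. A dimmer Gabpa probe went undetected in P7 wild type and gives no age difference. Pprc1 and Gabpa fall in the dimmest of the 8 brightness bands. All genes of that band had medians of 0.39 for age and -0.44 for genotype. The part of signal level in the differences of Pprc1 and Gabpa was not tested. Nrf1 was at 0.86, 1.20 and 1.38. Of the 12 regulators measured on both P7 arrays, 11 were higher on the Runx2+/- array, beside 56.8% of all named genes. Under the second scaling 10 were, beside 6157 of 12112 named genes. The median in the first scaling was 0.31 and includes Polg2 at its lower bound.

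Promoters of members carried the NRF1 and ETS letters more often than promoters in general. RefSeq promoters (GRCm38.p6) were at hand for 70 members, with 76 start sites, and the 250 bases before each start were searched on both strands. The NRF1 letters, GCGCA, any base and GCGC without a gap, were in 18.4% of member promoters and in 3.74% of all 32851. The ETS letters CCGGAAG were in 15.8% against 6.91% and the TATA box letters TATAAA in 9.21% against 12.4%. The YY1 letters AAGATGGCG were in 2.63% against 0.606%, which is just 2 of 76 member promoters, those of Atp5j and of Atp5sl, which is no subunit. Sp1 letters (GGGCGG) at 34.2% against 32.7% and CCAAT at 42.1% against 33.8% were closer to the general share. The 13 members with NRF1 letters had a genotype median of 0.38 and an age median of -0.20, beside 0.18 and -0.21 for 53 members without them. Of these promoters 4 are shown, 250 bases up to the start of transcription in the gene's direction, with the NRF1 letters in capitals: those of Sdha and Ndufa8, members with large genotype differences, and those of Cox6a1 and Ndufb4. Sdha and Ndufb4 hold 3 such stretches each, Cox6a1 holds 2 and Ndufa8 holds 1. Among promoters not shown, those of Ndufc2 and Cox7c, with genotype differences of 0.86 and 0.79, lack the letters, while that of Atp5k, at -0.18, has them. The promoters shown lie on the minus strand at chr13:74350241-74350490, chr2:36049339-36049588, chr5:115348959-115349208 and chr16:37654369-37654618.
Sdha promoter: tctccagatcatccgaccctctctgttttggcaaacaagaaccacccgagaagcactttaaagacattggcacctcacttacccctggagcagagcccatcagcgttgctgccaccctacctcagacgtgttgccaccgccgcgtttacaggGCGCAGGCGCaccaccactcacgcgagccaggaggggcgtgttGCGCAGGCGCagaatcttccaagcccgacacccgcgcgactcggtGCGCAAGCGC
Ndufa8 promoter: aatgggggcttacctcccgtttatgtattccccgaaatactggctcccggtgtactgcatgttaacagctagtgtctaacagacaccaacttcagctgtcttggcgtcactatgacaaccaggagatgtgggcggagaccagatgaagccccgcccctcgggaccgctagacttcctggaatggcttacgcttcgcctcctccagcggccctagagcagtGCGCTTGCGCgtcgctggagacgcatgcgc
Cox6a1 promoter: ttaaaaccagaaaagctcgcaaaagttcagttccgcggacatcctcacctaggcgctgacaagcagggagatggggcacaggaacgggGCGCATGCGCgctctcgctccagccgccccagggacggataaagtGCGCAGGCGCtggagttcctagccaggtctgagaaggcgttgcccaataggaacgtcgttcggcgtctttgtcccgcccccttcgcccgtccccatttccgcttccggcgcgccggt
Ndufb4 promoter: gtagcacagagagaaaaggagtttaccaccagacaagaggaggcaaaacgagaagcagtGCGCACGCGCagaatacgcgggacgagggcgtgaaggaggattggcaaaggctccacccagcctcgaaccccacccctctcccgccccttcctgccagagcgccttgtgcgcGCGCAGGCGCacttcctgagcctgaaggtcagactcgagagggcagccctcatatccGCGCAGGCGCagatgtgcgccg

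Across the 80 members, genotype differences were lower where the probe held more GC (Pearson r = -0.36, Spearman rho = -0.40, across genes that share 1 pair of arrays), and the same r of -0.36 held over 12038 named genes. Member probes held between 28.3% and 55.0% GC, with a median of 44.1%. The correlation of the age difference with GC was 0.23 over members and 0.05 over all genes. With the start of the probe in its transcript r was 0.19 for age and 0.18 for genotype, beside 0.12 and 0.16 over all genes. The part of probe composition and position in the member differences was not tested.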

How the data were processed

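Total RNA was amplified and labelled with Cy3, and 1 array per group was hybridised, per the labels' protocols; all arrays lay on 1 slide per the file headers. Agilent Feature Extraction read the images, in version 10.7.1.1 per the file headers (the submitters' processing notes name 9.5.1.1). Its background-corrected spot intensity, on a linear scale, is what the authors deposited, per the file headers. How the authors' deposited value table (intensity) was made is not given in the sources used here; its columns share a median of 12.59, its scaling steps stay unknown, and it served as an alternative.

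Control and outlier spots were left out, spots of a probe averaged as log2, and each array's 75th percentile subtracted (main), or the median of 15858 probes well above background on all arrays (second scaling). A gene was read by its brightest probe over the 3 arrays. A difference was measured where both arrays were well above background, and was a lower bound against the array's lowest detected signal where only the higher one was. At least 2-fold was counted. With 1 array per group no test was run; precision is limited by the number of arrays. The steps were tested on simulated data. Python 3.11.15, numpy 2.4.6, pandas 2.3.3 and, for normexp (offset 50), limma 3.58.1 in R 4.3.3 were used. Probe coordinates are those of the files (mm9); exons were not looked up.

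The members and lists were chosen with earlier results of these data known. Named genes are all complex II genes and tissue-specific paralogs, the 2 largest differences in each direction per complex and comparison, the brightest and dimmest member, members whose probes disagree or that were not detected on every array, and up to 3 list genes at least 2-fold apart. Ndufb4, Cycs, Polrmt, Tfb2m, Nrf1, Cox5b, Atp5k, Uqcrc2, Cox4nb and the mitochondrially encoded genes named were added after their values were seen. One gene that this rule selects is not reported here.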

Additional observations from a re-analysis of the deposited data

How the results depend on the processing

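The medians of all members, of complexes I to V and of the mitochondrially encoded subunits, and the counts of members at least 2-fold apart, were recomputed under quantile normalization, normexp background correction, the second scaling, members detected on all 3 arrays only, no filter or floor, the mean over probes, the probe nearest the 3′ end and the authors' values. Values with no replicate were read as moved when they shifted by more than the technical SD of a difference, taken from spots within arrays (0.25 for age, 0.22 for genotype). Normexp moved the member medians to -0.83 (age) and 1.32 (genotype), the mitochondrially encoded medians to -0.96 and -0.02, and the counts of members at least 2-fold apart to 15 and 64. It also moved the median of all probes to -0.25 and 0.63, and its offset of 50 exceeds the 75th percentile of the P7 wild-type array (22.8). The mitochondrially encoded genotype median was -0.85 under quantile normalization and -0.56 with the authors' values. Without filter or floor 3 members were at least 2-fold apart in each comparison, and at 1.5-fold 3 and 11 were. The complex III genotype median of -0.01 changed sign under quantile normalization (0.13), normexp (1.29), the mean over probes (0.01) and the authors' values (0.12); the cause was not tested. Medians by role and of the other pathway lists were recomputed under the second scaling alone, and those of brightness bands and NRF1 sets were not recomputed. Precision is limited by 1 array per group and, on the P7 wild-type array, by its low signal over background. No paired analysis was possible because each group has 1 array.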
